A study of Pan troglodytes and Macaca mulatta with 12 samples.

Results

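Retroviral restriction factors were compared between chimpanzee and rhesus macaque lymphoblastoid cell lines, that is, B cells transformed so that they keep growing in culture. The group held 9 of the 16903 genes with a count in the series and 29 of the 119202 exons. Of these genes, 5 were chosen by identifier: TRIM5 (ENSG00000132256), TRIM22 (ENSG00000132274), TRIM38 (ENSG00000112343), SAMHD1 (ENSG00000101347) and BST2 (ENSG00000130303), whose protein is called tetherin. The other 4 were all the genes whose listed exons lie between positions 37680000 and 37835000 of chromosome 22, the interval of the APOBEC3 cluster. The files pair these identifiers with no names, so the 4 genes are called the first to the fourth gene of the interval, by coordinate.

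The series holds RNA sequencing libraries from lines of 6 chimpanzees, of which 3 were female, and 6 rhesus macaques, of which 2 were female. Each individual gave 1 line and 1 library, and the labels give no treatment. Human lines named in the series design were not analysed here. Library totals ran from 1434241 to 4751954 counts in chimpanzee and from 1801830 to 4600137 in rhesus macaque. Chimpanzee replicate 1 had the smallest total and the lowest mean Spearman correlation over genes with its own species, 0.859 against 0.879 to 0.928 for the other 11 libraries. No pair of libraries of a species was as alike as counting noise alone would make it. The lowest chi-square per degree of freedom over the 30 pairs was 15.6. Markers of B cells and other cell types were not checked, because 0 gene identifiers matched a table with names.

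Restriction factors are host proteins that block a virus at set steps of its life cycle. TRIM5 binds the capsid of an entering retrovirus, APOBEC3 enzymes deaminate cytidines in newly made viral DNA, SAMHD1 removes the deoxynucleotides that reverse transcription needs, and tetherin holds budding particles at the cell surface. Many of these genes respond to interferon, and several are known for fast protein evolution among primates, with species differences in which viruses they block. In some rhesus macaques a cyclophilin A copy inserted at the TRIM5 locus replaces the capsid-binding domain, a form called TRIMCyp. Which form the present lines carry was not tested.

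Of the 9 genes, 7 had enough counts for the test across all genes (edgeR quasi-likelihood test with Benjamini-Hochberg adjustment, threshold 0.05). TRIM22 was higher in chimpanzee and BST2 was higher in rhesus macaque. TRIM5, TRIM38, SAMHD1 and the second and the third gene of the interval did not pass. These 2 calls among 7 stand beside a background of 48.2% of 9440 genes that differed between the species, with 24.7% higher and 23.5% lower in chimpanzee. The median log2 fold change (chimpanzee minus rhesus macaque, as throughout) was 0.40 over the 7 genes and 0.04 over all tested genes. By exon, 16 of the 29 were tested and 6 were called, 5 of them higher in chimpanzee. Those 5 were all 4 exons of TRIM22 and exon 1 of the second gene of the interval. Exons of the same gene are not independent. The background was 37.7% of 37417 exons, with 18.6% higher and 19% lower.

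**Figure D1:**
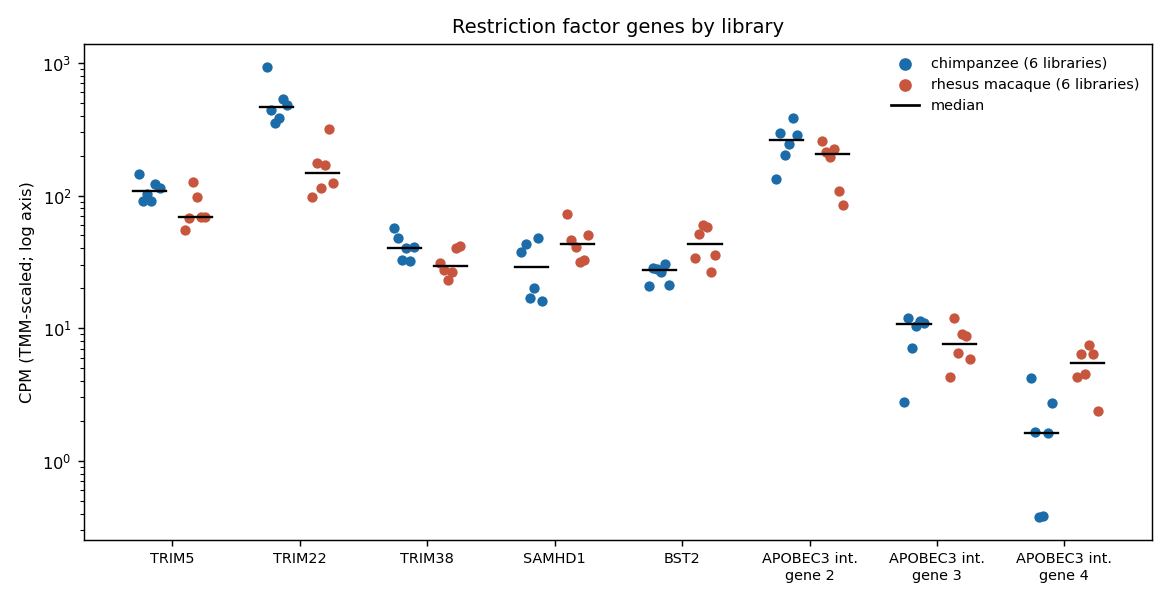
Level (CPM, counts scaled to library size with TMM factors, log axis) of 8 of the 9 genes in each library, with 1 point per library and a line at the median of each species. The 6 chimpanzee points of TRIM22, from 354 to 939.7 CPM, lie above all 6 rhesus macaque points, from 98.2 to 316 CPM, while the other genes overlap. The first gene of the APOBEC3 interval, with 1 count in all, is not drawn.

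TRIM22, an interferon-induced ubiquitin ligase reported to restrain HIV transcription, was the 1 gene of the set called beyond 2-fold with all libraries. Its 4 listed exons span chromosome 11, 5673973 to 5688668, and hold 2626 bases. Its lowest, median and highest levels, as counts scaled to library size (CPM), were 354, 465 and 939.7 in chimpanzee and 98.2, 148 and 316 in rhesus macaque. Every chimpanzee library was above every macaque library, a separation seen for 27.1% of tested genes and for none of the other 6 tested restriction factors. Chimpanzee libraries averaged 523 ± 214 CPM (SD, n = 6), and macaque libraries averaged 167 ± 79.4 CPM (SD, n = 6). The fitted difference was 3.13-fold, a log2 fold change of 1.65 (SE 0.31, 95% interval 0.98 to 2.32, edgeR adjusted p = 0.000643). In RNA from whole cultures, fewer cells that express a gene and less of its RNA per cell cannot be told apart.

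The TRIM22 call was kept in each of the 12 fits that left out 1 library, with log2 fold changes of 1.39 to 1.92. Among males alone, 3 chimpanzees and 4 macaques, the log2 fold change was 2.33 (edgeR adjusted p = 0.00161). Chimpanzee replicate 1 was the highest chimpanzee library for TRIM22, and without it the log2 fold change was 1.39. Whether the difference was beyond 2-fold, as it was for 17.2% of genes, rested on the libraries included. With all libraries the edgeR test against a fold of 2 gave an adjusted p of 0.0407. The call was kept without chimpanzee replicate 2, 3 or 4 or without macaque replicate 5. It was lost without any other single library, with edgeR adjusted p between 0.0511 and 0.129, and with DESeq2, adjusted p = 0.316.

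All 4 TRIM22 exons were higher in chimpanzee. The exons, numbered from the lowest coordinate, had log2 fold changes of 1.83, 1.88, 1.54 and 1.54, with edgeR adjusted p of 0.000254, 0.000107, 0.000908 and 0.00200. Exon 4, the longest at 1810 bases, held most counts, with a mean share of 49.3% of the gene's counts in chimpanzee and 55.1% in rhesus macaque. No exon of TRIM22 was called for a changed share. In human the last exon of such TRIM genes encodes the B30.2 domain, and the first coding exon encodes the RING and B-box domains.

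**Figure D2:**
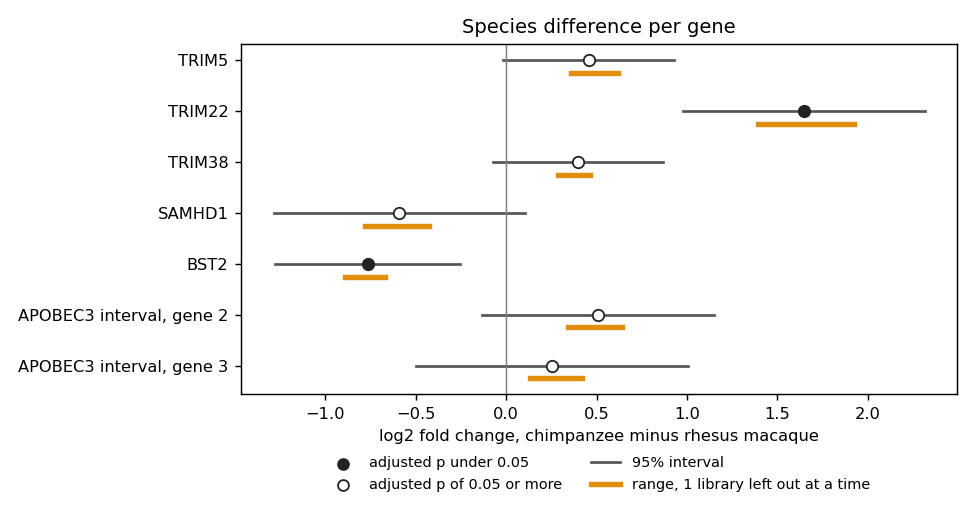
Log2 fold change of the 7 tested genes, chimpanzee minus rhesus macaque, with the 95% interval (thin line) and the range when 1 library is left out at a time (thick line). Filled points passed the edgeR test at an adjusted p under 0.05. The intervals of TRIM22 (0.98 to 2.32) and BST2 (-1.28 to -0.26) lie wholly on opposite sides of 0.

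TRIM5, the capsid sensor, lies next to TRIM22 on chromosome 11, from 5641364 to 5663200, with 10.8 kb between their listed exons. Its lowest, median and highest levels were 90.2, 109 and 146 CPM in chimpanzee and 54.9, 69.3 and 127 CPM in macaque. The species overlapped, since macaque replicate 3 lay above 5 of the 6 chimpanzee libraries. The log2 fold change of 0.46 (SE 0.22, 95% interval -0.02 to 0.93) did not pass (edgeR adjusted p = 0.103). It passed without macaque replicate 3, at 0.62 (edgeR adjusted p = 0.0226). It also passed when only library totals were used for scaling, a setting that moved the median of all genes from 0.04 to 0.13, at 0.55 (edgeR adjusted p = 0.0495).

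Counts of TRIM22 relative to TRIM5 within a library do not depend on library scaling. The ratio ran from 3.41 to 6.41 in chimpanzee, with a median of 4.31, and from 0.902 to 4.56 in rhesus macaque, with a median of 1.79. Only macaque replicate 5 reached the chimpanzee range. The log2 ratio averaged 2.17 ± 0.30 (SD, n = 6) for the chimpanzee libraries and 0.98 ± 0.77 (SD, n = 6) for the macaque libraries, a difference of 1.19. A two-sided exact permutation test over 924 splits gave p = 0.0108, also after adjustment over 2 such tests, where the smallest possible p is 0.00216. The ratio is not independent of the TRIM22 difference given above, and its test was chosen after the data were seen.

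The macaque lines were unlike each other in how TRIM5 counts fell on its exons. The SD of the exon 1 share was 22.7 percentage points over the macaque libraries and 5.51 over the chimpanzee libraries, a difference that was not tested. How often exons of other genes in the series vary this much between lines was not computed. Exon 1, the longest with 1838 bases at 5641364 to 5643201, took 50.2% to 64.8% of TRIM5 counts in the chimpanzee libraries. In macaque replicates 1 to 6 its share was 65.6%, 28.5%, 62.7%, 65.2%, 11.1% and 41.4%. Macaque replicates 2, 5 and 6 thus lay below every other library of either species. The lowest share, in macaque replicate 5, was 29 of 262 counts, with a 95% Wilson interval of 7.82% to 15.4%. The interval for macaque replicate 2 was 21.6% to 36.5% and that for macaque replicate 6 was 36.2% to 46.9%. In human TRIM5 is read toward lower coordinates, and its last exon encodes the capsid-binding B30.2 domain.

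At the other end of TRIM5, exon 5 (527 bases, 5662674 to 5663200) showed the opposite order. Its share was 3.78% to 6.31% in chimpanzee, and 3.33%, 13.1%, 0.784%, 1.99%, 12.98% and 11.8% in macaque replicates 1 to 6. The same 3 macaque libraries with the lowest shares of exon 1 had the highest shares of exon 5. Exon 4 (478 bases) took 25.2% to 37.5% in chimpanzee and 27.2% to 66.0% in rhesus macaque, and its 2 highest shares were 49.6% in macaque replicate 2 and 66.0% in macaque replicate 5. Shares add to a whole within a library, but the level of exon 5 differed too. It was 9.80, 9.70 and 8.77 CPM in macaque replicates 2, 5 and 6 and 2.06, 1.147 and 2.20 CPM in macaque replicates 1, 3 and 4. The chimpanzee libraries, from 3.73 to 7.98 CPM, lay between them.

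**Figure D3:**
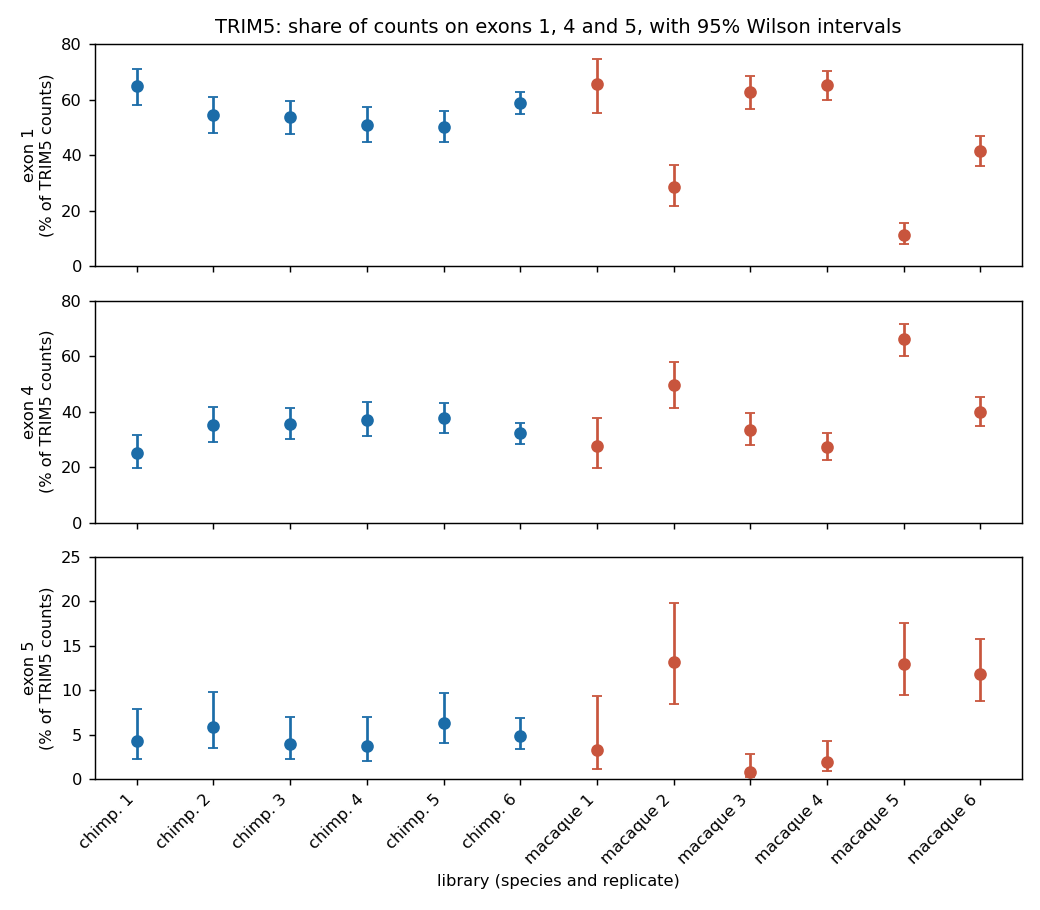
Share of TRIM5 counts on exons 1, 4 and 5 in each library, in percent, with 95% Wilson intervals that cover counting error only. Chimpanzee libraries lie between 50.2% and 64.8% for exon 1, while macaque replicates 2, 5 and 6 lie at 28.5%, 11.1% and 41.4%, and the same libraries are highest for exon 5.

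In CPM, TRIM5 exon 1 averaged 68.0 ± 21.8 (SD, n = 6) over chimpanzee libraries and 44.1 ± 31.8 (SD, n = 6) over macaque libraries, where it ran from 8.27 to 91.8. Its log2 fold change was 0.63 (95% interval -0.25 to 1.51, edgeR adjusted p = 0.251). Exons 3, 4 and 5 had log2 fold changes of 0.30, 0.17 and -0.02, none called. Exon 2 (176 bases) was hardly counted, with 10 of 1824 TRIM5 counts in chimpanzee and 6 of 1367 in rhesus macaque. Without exon 1 the TRIM5 log2 fold change was 0.12 (edgeR adjusted p = 0.699). In the comparison of exon shares between species, no TRIM5 exon was called.

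TRIM38, a relative known for damping innate immune signalling, lies on chromosome 6 from 26074542 to 26081492. Its levels were 32.3, 40.4 and 57.2 CPM in chimpanzee and 22.9, 29.4 and 41.3 CPM in macaque (lowest, median and highest). The species overlapped, and the log2 fold change of 0.40 (SE 0.22, 95% interval -0.07 to 0.87) did not pass (edgeR adjusted p = 0.1495). Its exon with most counts, exon 1 (599 bases), had a log2 fold change of 0.54 (edgeR adjusted p = 0.116). Without that exon the log2 fold change of the gene was 0.07 (edgeR adjusted p = 0.842). Exon 3 had one of 0.03 (edgeR adjusted p = 0.945). Each of the 3 TRIM genes has an exon of 96 bases, and TRIM22 and TRIM38 each also have one of 231 bases, in the same order along the gene. Only lengths were compared, not sequences.

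SAMHD1, the deoxynucleotide hydrolase, lies on chromosome 20 from 34954059 to 35013590, with 10 listed exons of 2015 bases. Its levels were 15.9, 28.9 and 47.6 CPM in chimpanzee and 31.7, 43.4 and 72.0 CPM in macaque (lowest, median and highest). The male chimpanzee lines, replicates 1, 2 and 5, at 37.7, 43.5 and 47.6 CPM, lay within the macaque range. The female chimpanzee lines, replicates 3, 4 and 6, at 16.9, 20.03 and 15.9 CPM, lay below all macaque libraries. The log2 fold change was -0.59 (SE 0.32, 95% interval -1.29 to 0.10) and did not pass (edgeR adjusted p = 0.145). With sex as a term it was -0.52 (SE 0.21, edgeR adjusted p = 0.0581), and among males alone it was -0.27 (SE 0.32, edgeR adjusted p = 0.556).

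SAMHD1 levels were ordered by sex in both species. The female macaque lines, replicates 4 and 5, at 31.7 and 32.5 CPM, were also below all 4 male macaque lines, which had 40.9 to 72.0 CPM. SAMHD1 was the 1 restriction factor of 7 tested with males and females fully apart in the same direction in both species, against a background of 0.318% of genes. In a fit with species and sex as terms, added after these values were seen, the log2 difference of male minus female was 1.003 (SE 0.22, 95% interval 0.53 to 1.48). Its unadjusted p was 0.000484, but it did not pass over all genes (edgeR adjusted p = 0.9999). That test called 0 of 9440 genes (0%), with 313 (3.32%) under an unadjusted p of 0.05. The other 6 factors had unadjusted p of 0.580 to 0.736 for sex.

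Exon 1 of SAMHD1 (825 bases), with most counts, had a log2 fold change of -0.85 (SE 0.34, edgeR adjusted p = 0.0538). It passed in 6 of the 12 fits that left out 1 library, namely those without chimpanzee replicate 1, 2 or 5 or macaque replicate 4, 5 or 6. The range over the 12 was -1.02 to -0.70. Exon 10 (338 bases) had a log2 fold change of -0.91 (edgeR adjusted p = 0.0965), and it passed without macaque replicate 4 or 5, with edgeR adjusted p of 0.0477 and 0.0369. The other 8 exons had too few counts for a test of their own.

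BST2, or tetherin, which acts on particles leaving the cell, was higher in rhesus macaque. It was counted on 1 listed exon of 67 bases at chromosome 19, 17376180 to 17376246, so its values rest on a short stretch of the gene. Its lowest, median and highest levels were 20.9, 27.4 and 30.3 CPM in chimpanzee and 26.4, 43.4 and 60.3 CPM in macaque. Macaque replicate 5, at 26.4 CPM, was the only macaque library within the chimpanzee range. Mean levels were 25.9 ± 3.98 CPM (SD, n = 6) and 44.2 ± 14.1 CPM (SD, n = 6). The macaque level was 1.70-fold that of chimpanzee, a log2 fold change of -0.77 (SE 0.24, 95% interval -1.28 to -0.26, edgeR adjusted p = 0.0159).

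The BST2 call was kept in all 12 fits that left out 1 library, with log2 fold changes of -0.89 to -0.67. Among males alone the log2 fold change was -0.75 and did not pass (edgeR adjusted p = 0.134). Chromosome 19 as a whole also had lower values in chimpanzee. The median log2 fold change of its 638 tested genes was -0.58, and 283 of them were called lower in chimpanzee. Of the 6 tested genes nearest to BST2, 3 on each side, 4 were called lower and 0 higher. The part of this regional shift in the BST2 difference was not tested.

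**Figure D4:**
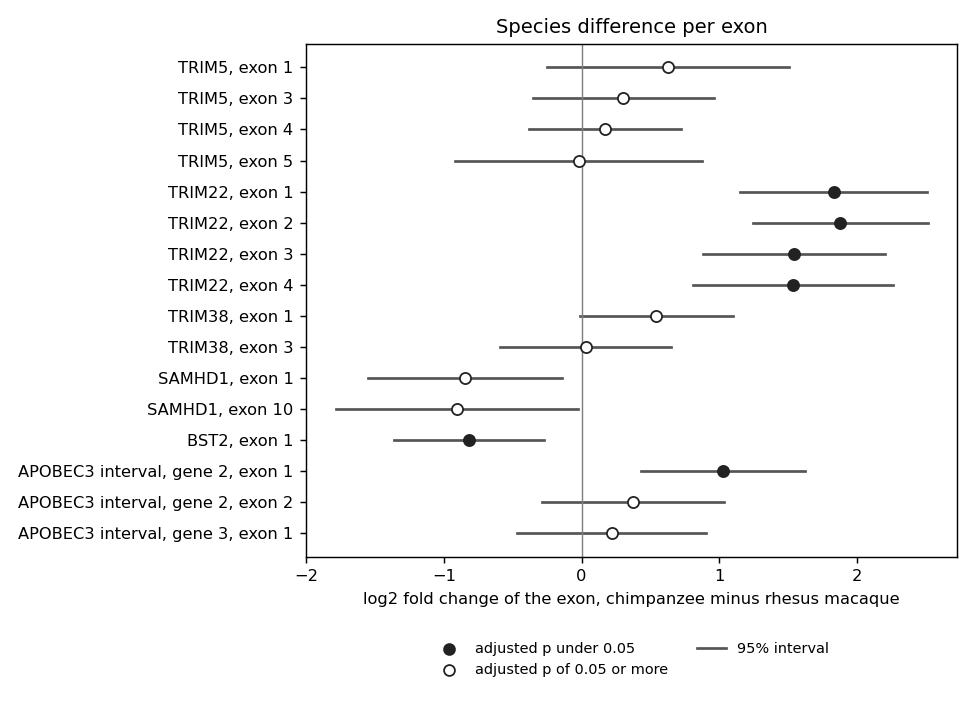
Log2 fold change of the 16 tested exons, chimpanzee minus rhesus macaque, with 95% intervals, exons numbered from the lowest coordinate. Filled points passed the edgeR test over 37417 exons. All 4 exons of TRIM22 (1.54 to 1.88) and exon 1 of the second gene of the APOBEC3 interval (1.03) are filled to the right of 0, and the exon of BST2 to the left.

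The APOBEC3 interval held genes of very unequal levels. Members of this family are near-identical copies in places, so reads may be split or lost between them, and their values are uncertain in that respect. Apart from the second gene, each was counted on 1 short exon. The first gene (103 bases at 37683569 to 37683671) had 1 count, in chimpanzee replicate 4, and 0 in rhesus macaque. A floor of 3 counts over the 6 libraries of a species is 0.180 CPM in chimpanzee and 0.175 CPM in macaque, so the gene was at or below what the depth can show in both.

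The second gene of the interval (ENSG00000198904), at 37741546 to 37744767, was the most abundant of the 4 listed genes of the interval. Any gene of the cluster with no listed exon was not measured. Its lowest, median and highest levels were 133, 264 and 382 CPM in chimpanzee and 84.4, 205 and 258 CPM in macaque. The ranges overlapped widely, and the log2 fold change of 0.51 (SE 0.30, 95% interval -0.13 to 1.147) did not pass (edgeR adjusted p = 0.174). Its exon with most counts, exon 2 (548 bases), had a log2 fold change of 0.37 (edgeR adjusted p = 0.374).

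Exon 1 of the second gene (157 bases, 37741546 to 37741702), singled out after its values were seen, was higher in chimpanzee. Chimpanzee libraries averaged 41.8 ± 8.81 CPM (SD, n = 6), from 26.4 to 48.6, and macaque libraries averaged 20.8 ± 8.36 CPM (SD, n = 6), from 12.8 to 32.3. The libraries overlapped, with chimpanzee replicate 1 lowest in its species and macaque replicate 1 highest in its own. The log2 fold change was 1.03 (SE 0.29, edgeR adjusted p = 0.00871), and it was called in all 12 fits that left out 1 library. The share of the gene's counts on exon 1 was 11.6% to 20.5% in chimpanzee and 6.73% to 15.4% in rhesus macaque. That share was not called as different (exon usage in edgeR, adjusted p = 0.678), so the exon was not shown to differ beyond the gene as a whole.

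The third gene (119 bases at 37778528 to 37778646) had 2.79, 10.7 and 11.9 CPM in chimpanzee and 4.27, 7.60 and 11.8 CPM in macaque. Its log2 fold change was 0.25 (95% interval -0.50 to 1.004, edgeR adjusted p = 0.579), and at an equal depth of all libraries it was -0.25. No direction was detectable at this depth.

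The fourth gene (ENSG00000100298, 69 bases at 37823226 to 37823294) fell below the filter on low counts, with 30 counts in chimpanzee and 87 in rhesus macaque. Its levels were 0.375, 1.63 and 4.19 CPM in chimpanzee and 2.38, 5.41 and 7.43 CPM in macaque. The species overlapped, since chimpanzee replicates 1 and 6 lay above macaque replicate 6, the lowest macaque library. The means were 1.82 ± 1.46 CPM (SD, n = 6) and 5.22 ± 1.85 CPM (SD, n = 6). A two-sided exact permutation test of CPM gave p = 0.0108, also after adjustment over 2 tests. It was chosen after the data were seen, so its p does not establish a direction. All 12 repeats without 1 library also passed, but they reuse the same values and are no separate support. The adjustment does not cover the choice of the 2 tests. The share of all genes that would pass this permutation test was not computed. In edgeR with no filter, where 36.3% of 16903 genes were called, its log2 fold change was -1.55 (SE 0.57, adjusted p = 0.0431).

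Levels of different genes can be set side by side only per length, here as CPM per kb of listed exon. How reads that cross an exon edge were counted is not known. The values of BST2, the third and the fourth gene, on exons of 67, 119 and 69 bases, are thus uncertain against longer genes. BST2 had 386 ± 59.4 in chimpanzee and 659 ± 210 in macaque (SD, n = 6), on its single short exon. The other genes are given in the order of their chimpanzee means. The second gene of the APOBEC3 interval had 364 ± 121 and 257 ± 97.9, and TRIM22 had 199 ± 81.5 and 63.4 ± 30.2. In rhesus macaque the order differed, with the means of the third and the fourth gene above that of TRIM22. In chimpanzee the BST2 and second-gene levels overlapped, whereas in rhesus macaque every library of BST2 lay above the highest of the second gene, 394 against 366 CPM per kb. The third gene had 76.3 and 64.7, and TRIM38 had 40.3 and 30.4. TRIM5 had 35.7 ± 6.79 and 26.0 ± 8.54, overlapping TRIM38 in both species. The fourth gene had 26.4 and 75.7, and SAMHD1 had 15.0 and 22.6.

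The spread between individuals differed among the genes. In chimpanzee, BST2 and TRIM5 were among the steadier genes, with an SD of log2 CPM of 0.22 and 0.26, at percentiles 7.81 and 12.9 of all tested genes. SAMHD1 in chimpanzee had an SD of 0.70, at percentile 74.9, and one of 0.16 among the 3 males alone. The median over all tested genes was 0.48 in chimpanzee and 0.45 in rhesus macaque. In rhesus macaque TRIM22 had an SD of 0.60, at percentile 71.4, but 0.36 without replicate 5, while TRIM5, SAMHD1 and BST2 had 0.43, 0.43 and 0.47. These differences in spread were not tested.

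**Figure D5:**
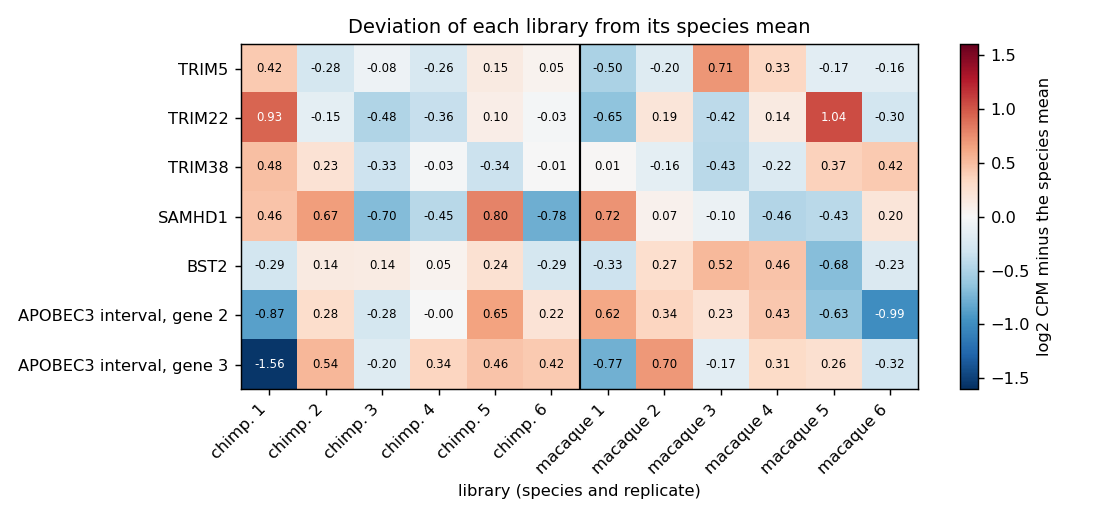
Deviation of log2 CPM from the species mean for the 7 tested genes in each library, on a color scale from blue (below) to red (above). Chimpanzee replicate 1 is high for TRIM5, TRIM22 and TRIM38 (0.42, 0.93 and 0.48) and low for the second and the third gene of the APOBEC3 interval (-0.87 and -1.56).

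No library was high for all of the factors. Chimpanzee replicate 1 was the highest of its species for TRIM5, TRIM22 and TRIM38 and the lowest for BST2 and for the second and the third gene of the interval. Chimpanzee replicate 5 was highest for SAMHD1, BST2 and the second gene. Macaque replicate 1 was highest for SAMHD1 and the second gene and lowest for TRIM5, TRIM22 and the third gene. Macaque replicate 5 was highest for TRIM22 and lowest for BST2.

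Exon usage was tested for 5 of the genes and 25 of their exons, and 0 were called by edgeR, against a background of 4.27% of 9970 genes and 0.852% of 87939 exons. The gene-level F test and limma also called 0 of the 5 genes. The lowest unadjusted exon p was 0.0707, for exon 3 of SAMHD1 (adjusted p = 0.591), so 0 exons were under 0.05 before adjustment.

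The genes around the restriction factors differed about as often as genes elsewhere. Of the 30 tested genes within 3 on either side of a factor, 14 were called (46.7%, against 48.2% of all genes), 4 higher and 10 lower in chimpanzee. TRIM5 and TRIM22 share their neighbours, of which 1 was higher and 3 were lower. The higher one, 19.2 kb from TRIM5, had a log2 fold change of 2.36 (edgeR adjusted p = 0.000103). Of the 6 tested neighbours of SAMHD1, 2 were higher and 0 lower in chimpanzee, and around TRIM38 0 were higher and 2 lower. Around the APOBEC3 interval 1 neighbour was higher and 1 was lower.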

How the data were processed

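Per the labels' protocols, RNA from cultured lines was extracted with a Qiagen RNeasy kit and complementary DNA was ligated to Illumina adapters, with no step that marks strand. The authors deposited 1 file for each library, with unnormalised counts for every exon seen. The sources used here do not give the aligner, counting tool, genome build or the rule that matched exons across species, so coordinates are as the files give them. An exon missing from a file was taken as 0. None of the 29 exons overlaps an exon of another gene.

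Counts were summed per gene. The species were compared with edgeR 4.0.16 in R 4.3.3 (TMM, robust quasi-likelihood fit, default filter on low counts). That filter asked for a CPM worth 10 counts at the median library size in at least 6 libraries. It also asked for 15 counts over all libraries together. In addition, glmTreat was run at a fold of 2 and diffSpliceDGE on exons with at least 10 counts. The fit per gene covered all 9440 genes that passed the filter. The methods were also run on simulated data, in which far fewer genes differed than were called here. That run does not give error rates for the present data. DESeq2 1.42.0 and limma 3.58.1 served as alternatives. CPM was scaled by TMM, with a prior count of 2 for log2 CPM. Wilson intervals and the floor of 3 counts cover counting error only, as reads carry no molecular identifiers. The labels give no batch, and each library is a separate individual per the series design.

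The genes and lists were chosen with earlier results of these data known. All 9 genes are described. Exons are described singly where usage was called and, for each tested gene, where counts were highest. Other exons named were chosen after their values were seen. Lists of other restriction factors, interferon pathway genes and cell type markers need names and were not run. The test of sex, the test without robust estimation and the permutation tests with their alternatives were chosen after seeing the data.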

Additional observations from a re-analysis of the deposited data

Results flagged for a closer look

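Of 44 groups of 6 libraries examined for a single library far from the others, 2 held one, about the rate of 1 in 20 that chance gives. Both were TRIM22 levels. Chimpanzee replicate 1 had 939.7 CPM, while the other 5 chimpanzee libraries had 354 to 530.3 CPM. Its gap to the nearest library was 0.698 of the whole range, above the critical value of 0.625 for 6 libraries. Rhesus macaque replicate 5 had 316 CPM, while the other 5 macaque libraries had 98.2 to 175 CPM, with a gap of 0.646 of the range. Macaque replicate 5 was also the library with the lowest share of TRIM5 counts on exon 1, 11.1%.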

How the results depend on the processing

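Besides leaving out each library, 12 other settings were run per gene. TRIM22 stayed called in all of them, with log2 fold changes of 1.61 to 2.33. The number of restriction factors called was 2 to 3 when 1 library was left out and 1 among males alone. With 1 library left out, the third call was the fourth gene of the APOBEC3 interval or, without macaque replicate 3, TRIM5. The fourth gene passed the filter in 7 of the 12 fits and was called in all 7. It was not tested in the others. Most of its counts came from macaque, 87 against 30 in chimpanzee, so passing the filter rested mainly on the species where it was high. Those calls are therefore no separate support. Without its strongest exon the second gene of the interval was called at a log2 fold change of 0.97 (edgeR adjusted p = 0.00935). That setting leaves exon 1 alone, so it repeats the exon 1 result given above. The third gene turned to -0.25 at equal depth, and TRIM38 exon 3 to -0.13 with no filter. When 1 library was left out, TRIM38 exon 3 ranged from -0.11 to 0.18, TRIM5 exon 5 from -0.24 to 0.14 and TRIM5 exon 4 from -0.00301 to 0.24. The cause was not tested. With no filter, 2800 genes differed beyond 2-fold (1628 with it) and 28404 exons were called (14090 with it), since more were tested. Among males alone, chimpanzee was higher for 1371 genes and lower for 1385, and 9 of the neighbours were called. Genes with a changed exon usage numbered 426, but 1675 by the F test, 1254 by limma and 260 to 504 without 1 library, with 263 without macaque replicate 2 and 260 without macaque replicate 3. No paired analysis was possible because the labels carry no replicate numbers, and the numbers used here only name libraries. Depth limits the first, the third and the fourth gene of the interval, with 1, 295 and 117 counts in all.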
